A study of Mus musculus with 18 samples.

Results

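The 38 genes described here encode contractile, calcium-handling and energy-metabolism proteins of skeletal muscle, followed array by array through brown adipose tissue (BAT) and white adipose tissue (WAT). They were taken from a list of muscle gene symbols, and each gene is represented by its brightest probe set that carries a single symbol. All 38 listed genes were measured, among 19937 named genes on the array. Tissue came from male C57BL/6J mice of 10 weeks on chow. There were 5 BAT and 4 WAT arrays of adipose-specific human FXR overexpressors (FXR BAT and FXR WAT), and 5 BAT and 4 WAT arrays of wild-type mice (control BAT and control WAT). FXR is a nuclear receptor for bile acids. The labels do not name the promoter that drives the transgene, the depots of BAT and WAT, or which BAT and WAT samples came from the same mouse. Feeding for 6 weeks is written in the extraction text of control BAT 2 and control BAT 4 and of no other sample. Replicates are called biological in the design text.

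Skeletal muscle fibres contract when calcium released from the sarcoplasmic reticulum binds troponin and lets myosin heads pull on actin. Fast and slow fibres use different genes for the same tasks: each has its own myosin heavy chains and its own set of troponin subunits, and fast fibres carry the pump Atp2a1 and the calcium buffer Pvalb. Interscapular brown fat of the mouse lies next to back muscles, and brown adipocytes and skeletal muscle share a precursor population in the embryo. In a bulk tissue extract, more muscle cells and more muscle RNA per cell cannot be told apart.

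Values are log2(intensity + 1) of the deposited probe set intensities unless another scale is named. Levels of different genes come from different probes and are not set against each other. Instead, each gene is compared with itself across arrays. Correlations between arrays of a group across all genes were 0.973 to 0.995. Over all genes, the median level of an array was 6.73 to 6.86 in BAT and 6.08 to 6.14 in WAT, so that BAT arrays lay above WAT arrays as a whole. Mouse Nr1h4, the gene of FXR, was dim, at 6.21 to 6.31 in FXR BAT against 6.15 to 6.28 in control BAT, and a mouse probe set does not measure the human transgene directly. The brown fat marker Ucp1, encoding the uncoupling protein of heat production, lay at 12.61 to 13.00 on the 5 FXR BAT arrays and at 13.09 to 13.42 on the 5 control BAT arrays, against 5.73 to 6.01 on the WAT arrays. The adipocyte hormone gene Adipoq lay at 11.43 to 11.61 in FXR BAT and 11.52 to 11.83 in control BAT. The BAT labels thus stood with their defining marker on all 10 arrays.

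Promoters were looked up for all 38 genes in a RefSeq table of mouse build GRCm38.p6, which gives windows of 300 bases that end shortly after each start, and 29 genes matched. Not matched were Trdn, Tcap, Tnni2, Neb, Tnnt3, Actn3, Ampd1, Myot and Myoz1. The promoters of 4 genes are shown as examples of roles: Myh4 for fast fibres, Myh7 for slow fibres, Acta1 for the thin filament and Ckm for energy supply. Capitals mark matches, on either strand, to CAGCTG and CACCTG (E-box letters of the kind bound by myogenic bHLH factors), TAAAAATA (MEF2-type letters), GGAATG (TEAD-type letters) and the CArG box of serum response factor.
Myh4 (chr11:67237562-67237861, + strand): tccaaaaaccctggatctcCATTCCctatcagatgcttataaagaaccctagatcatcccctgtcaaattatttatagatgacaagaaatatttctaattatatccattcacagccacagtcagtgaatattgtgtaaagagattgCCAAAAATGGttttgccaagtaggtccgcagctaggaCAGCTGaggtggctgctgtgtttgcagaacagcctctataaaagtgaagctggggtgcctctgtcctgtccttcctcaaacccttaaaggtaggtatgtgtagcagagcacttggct
Myh7 (chr14:54994577-54994876, - strand): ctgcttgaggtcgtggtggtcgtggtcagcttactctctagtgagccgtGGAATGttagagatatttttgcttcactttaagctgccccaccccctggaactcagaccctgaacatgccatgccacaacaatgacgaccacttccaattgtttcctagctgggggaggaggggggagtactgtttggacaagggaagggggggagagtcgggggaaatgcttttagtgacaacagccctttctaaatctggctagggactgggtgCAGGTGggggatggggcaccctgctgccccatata
Acta1 (chr8:123894726-123895025, - strand): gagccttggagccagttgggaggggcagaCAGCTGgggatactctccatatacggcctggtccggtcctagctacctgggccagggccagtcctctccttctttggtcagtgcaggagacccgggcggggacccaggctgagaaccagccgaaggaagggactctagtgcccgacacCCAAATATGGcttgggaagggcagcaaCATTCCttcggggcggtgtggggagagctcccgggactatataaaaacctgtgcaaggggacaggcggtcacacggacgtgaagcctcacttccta
Ckm (chr7:19410844-19411143, + strand): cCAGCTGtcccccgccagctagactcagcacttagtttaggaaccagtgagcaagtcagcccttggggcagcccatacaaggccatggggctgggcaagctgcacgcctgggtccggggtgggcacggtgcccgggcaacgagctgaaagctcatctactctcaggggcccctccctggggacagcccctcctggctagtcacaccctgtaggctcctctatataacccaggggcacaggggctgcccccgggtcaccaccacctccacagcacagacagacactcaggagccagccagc
The shown Myh4 promoter held the CAGCTG letters, the letters GGAATG on the other strand and a CArG box, and the shown Acta1 promoter held the same 3. For Myh7, which has 2 overlapping start windows in the table, the first was used: it held GGAATG, and CACCTG on the other strand. The second held the CACCTG match but not GGAATG, so the GGAATG match of this gene depended on the window. The Ckm window held CAGCTG. None of these shown genes passed the BAT test below. The genes that did, Myh1 and Myh2, were matched but are not shown, and neither held CAGCTG. Of the capitalised strings, Myh1 held GGAATG and Myh2 held none. Over the 29 matched genes, CAGCTG was in 15 windows (51.7%), against 16.1% of 27025 gene symbols, each taken with its first window. GGAATG was in 10 (34.5%, against 14.6%) and the CArG box in 3 (10.3%, against 1.57%). CACCTG was in 8 (27.6%, against 20% of these first windows) and TAAAAATA in 2 (6.9%, against 2.71%). TATAAA, searched as well but not capitalised, was in 6 (20.7%, against 14.2%). A match is a string of letters, not a measured binding site.

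The 38 genes moved together from array to array in BAT and were flat in WAT. Their median level was 10.40, 9.45, 6.67, 10.52 and 7.89 on FXR BAT 1 to 5, against 7.12, 7.14, 7.84, 6.72 and 6.66 on control BAT 1 to 5. On FXR BAT 1, 2 and 4, all 38 genes lay above all 5 control BAT arrays, which 10.5% of all genes did. FXR BAT 3 was at the control level, with 27 genes inside the control range and 11 below all controls, where 21.3% of all genes were. FXR BAT 5 lay between by its median level. On this array 12 genes were above all controls, near the 30.6% of all genes that were, and 26 were inside their range. Among the controls, control BAT 3 was the highest array for 38 of 38 genes (18% of all genes), and control BAT 4 or 5 the lowest for 37 of 38 (42.8% of all genes). The SD was larger in FXR BAT than in control BAT for 38 of 38 genes (54.2% of all genes). The median SD of the 38 genes was 1.61 in FXR BAT and 0.483 in control BAT, against 0.072 and 0.070 for the median of all genes. In WAT the median level was 5.86 to 5.91 on FXR arrays and 5.89 to 5.94 on control arrays, below the median of all genes on each array.

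**Figure D1:**
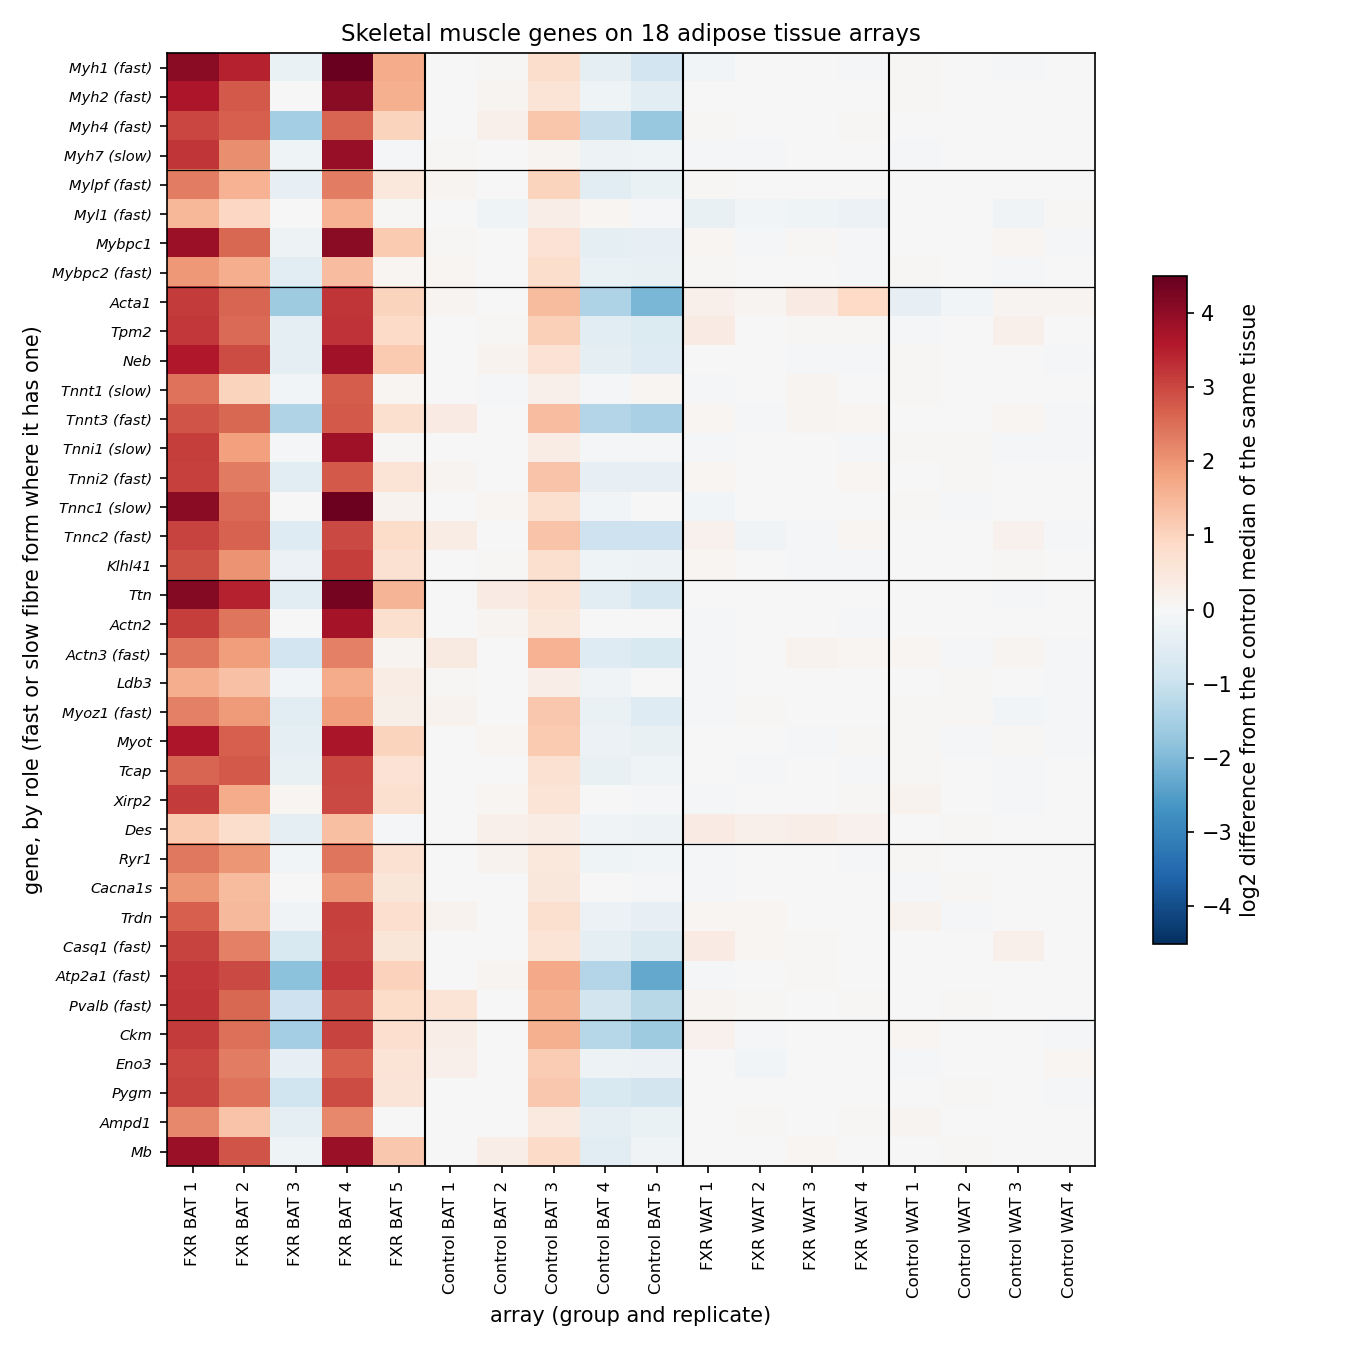
Log2 difference of each of the 38 muscle genes (rows, grouped by role) from the median of the control arrays of the same tissue, on 18 arrays (columns, by group). FXR BAT 1, 2 and 4 are high for all genes, control BAT 3 is the highest control, and on WAT arrays all values lie within 0.361 of 0 except those of Acta1, which reach 0.888.

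Differences between FXR BAT and control BAT were positive for all 38 genes and passed the test for 2. The median difference over the 38 genes was 1.71 log2 units (0.52 to 2.76), against 0.011 over all genes. With limma and Benjamini-Hochberg adjustment over all genes, 2 of 38 (5.26%) rose, 36 did not pass and none fell. Over all genes, 7.01% rose, so the share of called muscle genes was near the background. At an unadjusted p below the threshold there were 29 of 38, against 28.2% of all genes. The groups overlapped for 38 of 38 genes, because FXR BAT 3 lay within or below the controls; 5.89% of all genes had every FXR BAT array above every control. Leaving out FXR BAT 3 gave 36 called genes, all except Actn3 and Des, and a median difference of 2.31, in a fit that called 18.5% of all genes in either direction. FXR BAT 3 had the lowest median level of these same genes among the FXR BAT arrays, so leaving it out was bound to widen the difference. Leaving out FXR BAT 1, 2 and 4, arrays named for their muscle gene levels, gave 0 called genes (smallest adjusted p = 0.304, limma) and a median of 0.012, with 19 of 38 differences positive. That fit kept only FXR BAT 3 and 5 of the FXR BAT arrays and called 9.6% of all genes in either direction.

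Myosin heavy chains are the motor proteins that set fibre type. Myh1, the fast heavy chain of type IIx fibres, measured 10.99, 10.42, 6.65, 11.40 and 8.63 on FXR BAT 1 to 5, against 6.95, 7.02, 7.76, 6.50 and 6.08 on control BAT 1 to 5. FXR BAT 1, 2, 4 and 5 lay above all controls and FXR BAT 3 among them. The difference of 2.76 ± 0.79 log2 units (SE of limma, 5 arrays in each group) passed with an adjusted p of 0.0359, and the means were 9.62 ± 1.97 in FXR BAT and 6.86 ± 0.63 in control BAT (SD). The limma SE takes a common spread for both groups, moderated toward that of all genes, while these SDs were unequal. Myh2, the fast heavy chain of type IIa fibres, measured 10.34, 9.49, 6.69, 10.77 and 8.33 in FXR BAT, against 6.72, 6.83, 7.34, 6.51 and 6.21 in control BAT. Its arrays fell in the same order as those of Myh1 in FXR BAT, and it rose by 2.41 ± 0.65 (SE, n = 5 and 5, adjusted p = 0.0285, limma). These 2 calls were lost when any one of FXR BAT 1, 2 or 4 or control BAT 1, 2, 4 or 5 was left out, with adjusted p of 0.0561 to 0.0661 for Myh2 and 0.0666 to 0.0821 for Myh1, and with a trended robust variance (0.0706 and 0.0849).

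Myh4, the heavy chain of the fastest, type IIb fibres, measured 11.56, 11.25, 7.01, 11.16 and 9.55 in FXR BAT, against 8.55, 8.78, 9.79, 7.50 and 6.86 in control BAT. Control BAT 3 was above FXR BAT 5, and the control arrays alone spanned 6.86 to 9.79. The difference of 1.81 ± 0.84 (SE, n = 5 and 5) had an adjusted p of 0.189 (limma). Myh7, the slow heavy chain, measured 9.97, 8.86, 6.56, 10.69 and 6.72 in FXR BAT, against 6.81, 6.77, 6.90, 6.53 and 6.59 in control BAT. It was high on FXR BAT 1, 2 and 4 and at the control level on FXR BAT 3 and 5. Its difference was 1.84 ± 0.72 (SE, adjusted p = 0.113, limma). In RefSeq gene order Myh2, Myh1 and Myh4 are neighbours on chromosome 11, between the developmental genes Myh3 and Myh8, and their coding sequences are alike; signal shared between their probe sets was not tested. Myh8, the perinatal heavy chain, was 6.45 to 6.77 in FXR BAT and 6.46 to 6.57 in control BAT, and 0 of 3 developmental or extraocular heavy chains (Myh3, Myh8, Myh13) passed.

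**Figure D2:**
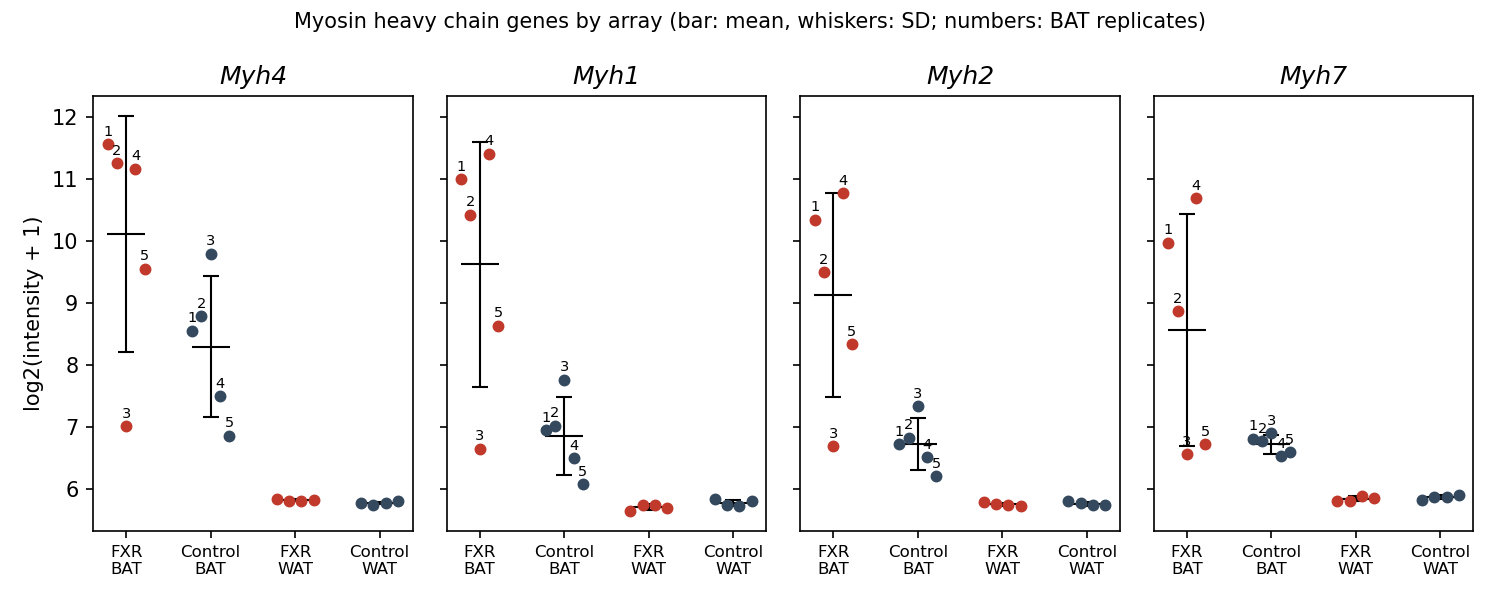
Level of 4 myosin heavy chain genes, log2(intensity + 1), on every array by group; points are arrays (numbers give BAT replicates), bars are means and whiskers the SD (n = 5 per BAT group, n = 4 per WAT group). FXR BAT 1, 2 and 4 are above all controls for each gene, FXR BAT 3 is not, and control BAT 3 is the highest control.

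Among the myosin light chains and binding proteins, Mylpf, the fast regulatory light chain, measured 9.31, 8.55, 6.62, 9.29 and 7.46 in FXR BAT, against 7.11, 6.99, 7.98, 6.51 and 6.69 in control BAT. FXR BAT 5 was below control BAT 3, and the difference of 1.19 did not pass (adjusted p = 0.143, limma). Mybpc1, a myosin-binding protein C found in slow and in fast fibres, measured 10.64, 9.37, 6.56, 10.86 and 7.97 in FXR BAT, against 6.85, 6.79, 7.43, 6.39 and 6.44 in control BAT. Its difference of 2.30 ± 0.71 (SE, n = 5 and 5) lay just outside the threshold (adjusted p = 0.0501, limma). Mybpc2, the fast-fibre form, differed by 0.86 (adjusted p = 0.234).

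Myl1, the fast essential light chain, varied least over the BAT arrays among the fast genes. It measured 10.92, 10.35, 9.39, 10.96 and 9.45 in FXR BAT, against 9.41, 9.20, 9.71, 9.51 and 9.32 in control BAT. FXR BAT 3 and 5 lay inside the control range, and the control SD of 0.19 was the smallest among the 14 fast genes, against 1.14 for Myh4. The difference of 0.78 ± 0.30 (SE, n = 5 and 5) did not pass (adjusted p = 0.110, limma).

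Among thin filament genes, Acta1, skeletal alpha-actin, measured 12.72, 12.19, 8.00, 12.80 and 10.58 in FXR BAT, against 9.69, 9.58, 11.02, 8.19 and 7.54 in control BAT. Control BAT 3 again exceeded FXR BAT 5, and FXR BAT 3 lay between control BAT 4 and 5. The difference of 2.05 ± 0.93 (SE, n = 5 and 5) had an adjusted p of 0.176 (limma). Neb, nebulin, which spans the thin filament, measured 10.66, 9.96, 6.59, 10.81 and 8.22 in FXR BAT, against 7.04, 7.19, 7.68, 6.61 and 6.48 in control BAT, a difference of 2.25 (adjusted p = 0.0554). Tpm2, beta-tropomyosin, differed by 1.88 (adjusted p = 0.0833), and Klhl41, a kelch protein of the sarcomere, by 1.61 (adjusted p = 0.0812).

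Troponin, the calcium switch of the thin filament, has a fast and a slow gene for each subunit. The inhibitory subunit of fast fibres, Tnni2, measured 10.80, 10.07, 7.25, 10.49 and 8.33 in FXR BAT, against 7.83, 7.71, 8.98, 7.34 and 7.34 in control BAT. Its slow counterpart Tnni1 measured 9.64, 8.37, 6.41, 10.33 and 6.58 in FXR BAT, against 6.51, 6.51, 6.83, 6.46 and 6.43 in control BAT. The highest array was FXR BAT 1 for Tnni2 and FXR BAT 4 for Tnni1. The calcium-binding subunit of slow fibres, Tnnc1, which the heart also uses, measured 10.62, 9.09, 6.57, 10.98 and 6.69 in FXR BAT, against 6.52, 6.63, 7.28, 6.44 and 6.55 in control BAT. Its fast counterpart Tnnc2 differed by 1.83 (adjusted p = 0.110, limma), against 2.11 for Tnnc1 (adjusted p = 0.110). The tropomyosin-binding subunits differed by 1.72 for the fast gene Tnnt3 and 1.19 for the slow gene Tnnt1, and 0 of 6 troponin genes passed.

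Of the Z disc, titin and filament genes, Ttn, the giant elastic protein that runs from Z disc to M line, came next after Myh1 in size of difference. It measured 11.41, 10.72, 6.74, 11.57 and 8.79 in FXR BAT, against 7.26, 7.63, 7.89, 6.78 and 6.49 in control BAT. FXR BAT 5 stood above all 5 controls, as for Myh1 and Myh2. The difference of 2.63 ± 0.81 (SE, n = 5 and 5) had an adjusted p of 0.0501 (limma). Actn2, the alpha-actinin of all fibres, differed by 1.90 (adjusted p = 0.0569), and Actn3, the alpha-actinin of fast fibres, by 1.02 (adjusted p = 0.354). On FXR BAT 5, Actn3 was 7.44 and Actn2 7.51, against 8.86 and 7.27 on control BAT 3, so that these 2 arrays ranked differently for the 2 genes. Myot (myotilin), Tcap (telethonin), Xirp2, Myoz1 and Ldb3, all proteins of the Z disc or its attachments, differed by 0.93 to 1.99, and none passed.

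Des, the intermediate filament desmin, differed least, by 0.52 ± 0.31 (SE, n = 5 and 5, adjusted p = 0.328, limma). It measured 9.72, 9.33, 8.10, 9.89 and 8.47 in FXR BAT, against 8.54, 8.79, 8.89, 8.40 and 8.32 in control BAT. FXR BAT 3 lay below all controls. Des is also made by smooth muscle and pericytes.

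Among calcium release and uptake genes was the one with the largest SD of the 38 in both BAT groups. Atp2a1, the fast-fibre pump that returns calcium to the sarcoplasmic reticulum, measured 12.21, 11.99, 7.19, 12.22 and 10.07 in FXR BAT, against 9.03, 9.17, 10.74, 7.72 and 6.74 in control BAT. Controls alone spanned 6.74 to 10.74. The difference of 2.06 ± 1.01 (SE, n = 5 and 5) had an adjusted p of 0.215 (limma). Ryr1, the calcium release channel, measured 9.01, 8.64, 6.52, 9.07 and 7.32 in FXR BAT, against 6.65, 6.79, 7.12, 6.46 and 6.52 in control BAT, a difference of 1.40 with a smaller control spread (adjusted p = 0.0551). The voltage sensor Cacna1s differed by 1.10, the junctional protein Trdn (triadin) by 1.51, the calcium store Casq1 by 1.74 and the buffer Pvalb (parvalbumin) by 1.68, and none passed.

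Of the energy genes, Ckm, the muscle creatine kinase that regenerates ATP, measured 11.83, 11.16, 7.15, 11.70 and 9.42 in FXR BAT, against 8.96, 8.67, 10.28, 7.41 and 7.07 in control BAT. Control BAT 3 exceeded FXR BAT 5, and the difference of 1.77 ± 0.90 did not pass (SE, n = 5 and 5, adjusted p = 0.233, limma). Mb, myoglobin, the oxygen store of oxidative fibres, measured 11.58, 10.56, 7.51, 11.61 and 8.91 in FXR BAT, against 7.71, 8.02, 8.58, 7.25 and 7.54 in control BAT. For this gene FXR BAT 5 exceeded control BAT 3, and the difference was 2.21 ± 0.71 (SE, adjusted p = 0.0571, limma). The glycolytic and glycogen genes Eno3 and Pygm differed by 1.47 and 1.67, and Ampd1, the muscle AMP deaminase, by 1.10, and none of these passed.

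**Figure D3:**
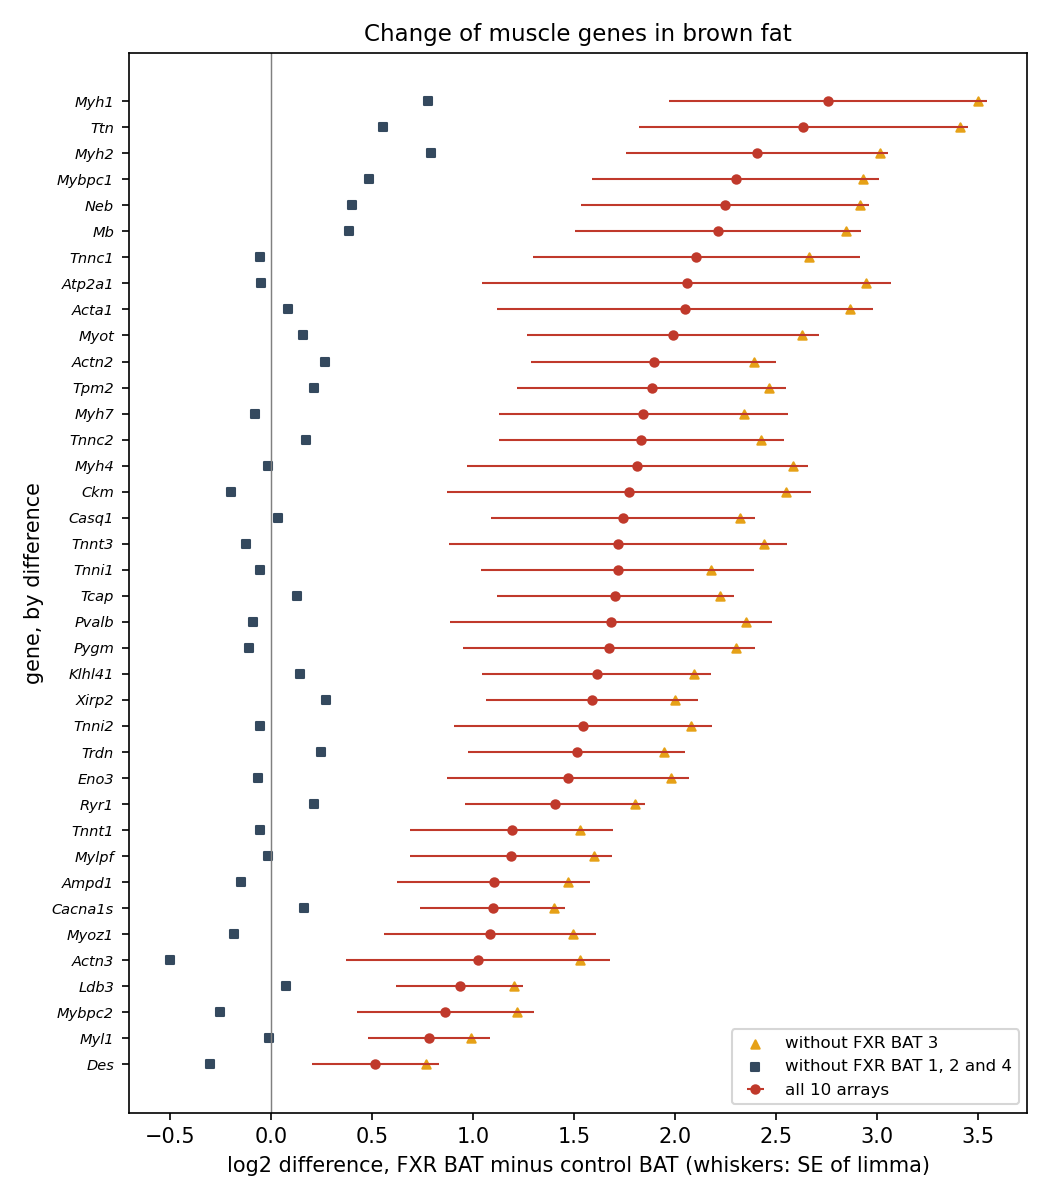
Log2 difference of each muscle gene between FXR BAT and control BAT on all 10 arrays (circles, whiskers are the SE, n = 5 and 5), without FXR BAT 3 (triangles) and without FXR BAT 1, 2 and 4 (squares). All 38 circles are above 0, with a median of 1.71, and the squares lie around 0, with a median of 0.012.

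Fast and slow fibre genes were compared by how far each gene lay from its own median over the control BAT arrays. On FXR BAT 1, the median over the 14 fast genes was 3.03 and over the 4 slow genes (Myh7, Tnnt1, Tnni1 and Tnnc1) 3.16. On FXR BAT 2 the fast median was 2.47 and the slow median 1.98. On FXR BAT 4 the slow median was the higher, as on FXR BAT 1, with a fast median of 2.77 and a slow median of 3.87. The muscle-rich arrays thus differed in their balance of fast and slow genes. On FXR BAT 3 the medians were -0.54 for fast and -0.12 for slow genes, and on FXR BAT 5 they were 0.66 and 0.08. Among controls, control BAT 3 had 1.22 for fast and 0.28 for slow genes, and control BAT 5 had -0.68 and -0.04. Slow genes in control BAT lay at 6.43 to 7.28, around the median of all genes, where a decrease has little room to show. With a pseudocount of 32 in place of 1, the medians on FXR BAT 1 were nearly equal, at 2.83 for fast and 2.82 for slow genes. On a linear scale, with the dimmest 1% of each array as the zero, the order on FXR BAT 2 turned, to 6.98 times the control median for fast and 7.28 times for slow genes, and the size of such ratios depends on where that zero is set. With 6 further slow fibre genes in place of the 4, the slow medians on FXR BAT 1, 2 and 4 were 1.60, 0.73 and 2.00, below the fast median on each, so the order of fast and slow on an array depended on which slow genes were taken. Among these 6, Tpm3 (10.06 to 10.21) and Atp2a2 (10.69 to 11.15), the slow and cardiac calcium pump that other cells also make, already had high levels in control BAT.

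**Figure D4:**
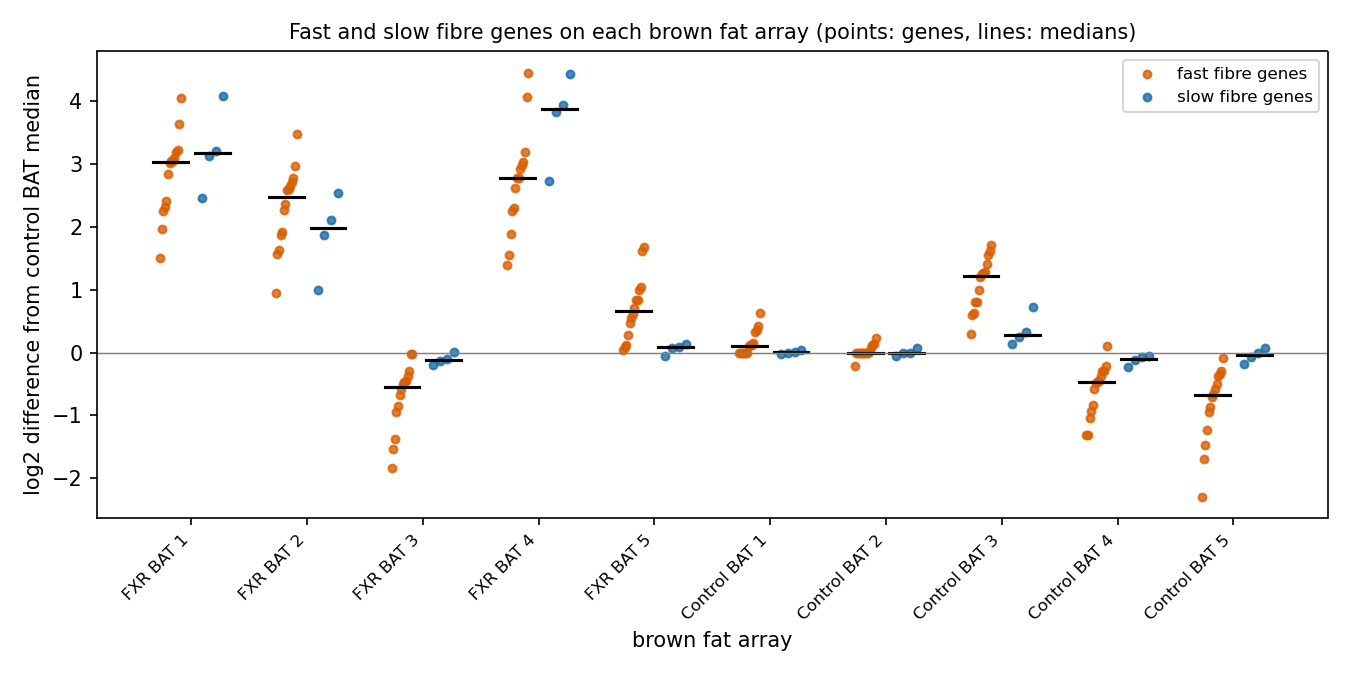
Log2 difference from the control BAT median for 14 fast fibre genes and 4 slow fibre genes on each BAT array; points are genes and lines their medians. Slow genes are raised on FXR BAT 1, 2 and 4, with medians of 3.16, 1.98 and 3.87, and their medians lie within 0.28 of 0 on the other arrays, where single slow genes reach 0.73 (Tnnc1 on control BAT 3). The fast medians on the controls run from -0.68 to 1.22.

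Differences between pairs of arrays with much muscle RNA do not depend on the controls. FXR BAT 4 minus FXR BAT 1 was positive for 4 of 4 slow genes, with a median of 0.52 and the highest value for Myh7 (0.73). It was also positive for 16 of the 20 genes not specific to a fibre type (median 0.07) and for 10021 of all 19937 genes. The same difference was negative for 10 of 14 fast genes, with a median of -0.06, reaching -0.58 for Mybpc2 and -0.40 for Myh4. The fast heavy chains were split, since Myh1 (0.40) and Myh2 (0.43) went with the slow genes. FXR BAT 2 minus FXR BAT 1 had a median of -0.56 for fast and -1.37 for slow genes, and FXR BAT 2 minus FXR BAT 4 one of -0.36 and -1.86. Each is a difference between single arrays, with no replicate check. The 6 further slow genes, Myl2, Myl3, Myoz2, Casq2, Tpm3 and Atp2a2, were also each higher on FXR BAT 4 than on FXR BAT 1, as with Myl2, the slow regulatory light chain, at 10.11 and 9.49.

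FXR BAT 5 and control BAT 3, the arrays of intermediate muscle level, also differed in which genes were high. FXR BAT 5 minus control BAT 3 was negative for 12 of 14 fast genes, lowest for Actn3 (-1.43) and Myoz1 (-0.92), and positive for Myh2 (0.99) and Myh1 (0.87). It was negative for 4 of 4 slow genes too, with a median of -0.21, against -0.59 for the fast genes. It was negative for 10 of the 20 genes not specific to a fibre type and for 8166 of all 19937 genes. Of the genes not specific to a fibre type, Ttn (0.90), Mybpc1 (0.54), Neb (0.54) and Mb (0.33) were higher on FXR BAT 5. Ckm (-0.87), Pygm (-0.65) and Eno3 (-0.55) were lower. In both pairs Myh1 and Myh2 lay on the opposite side of 0 from Myh4 (-0.40 and -0.24).

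**Figure D5:**
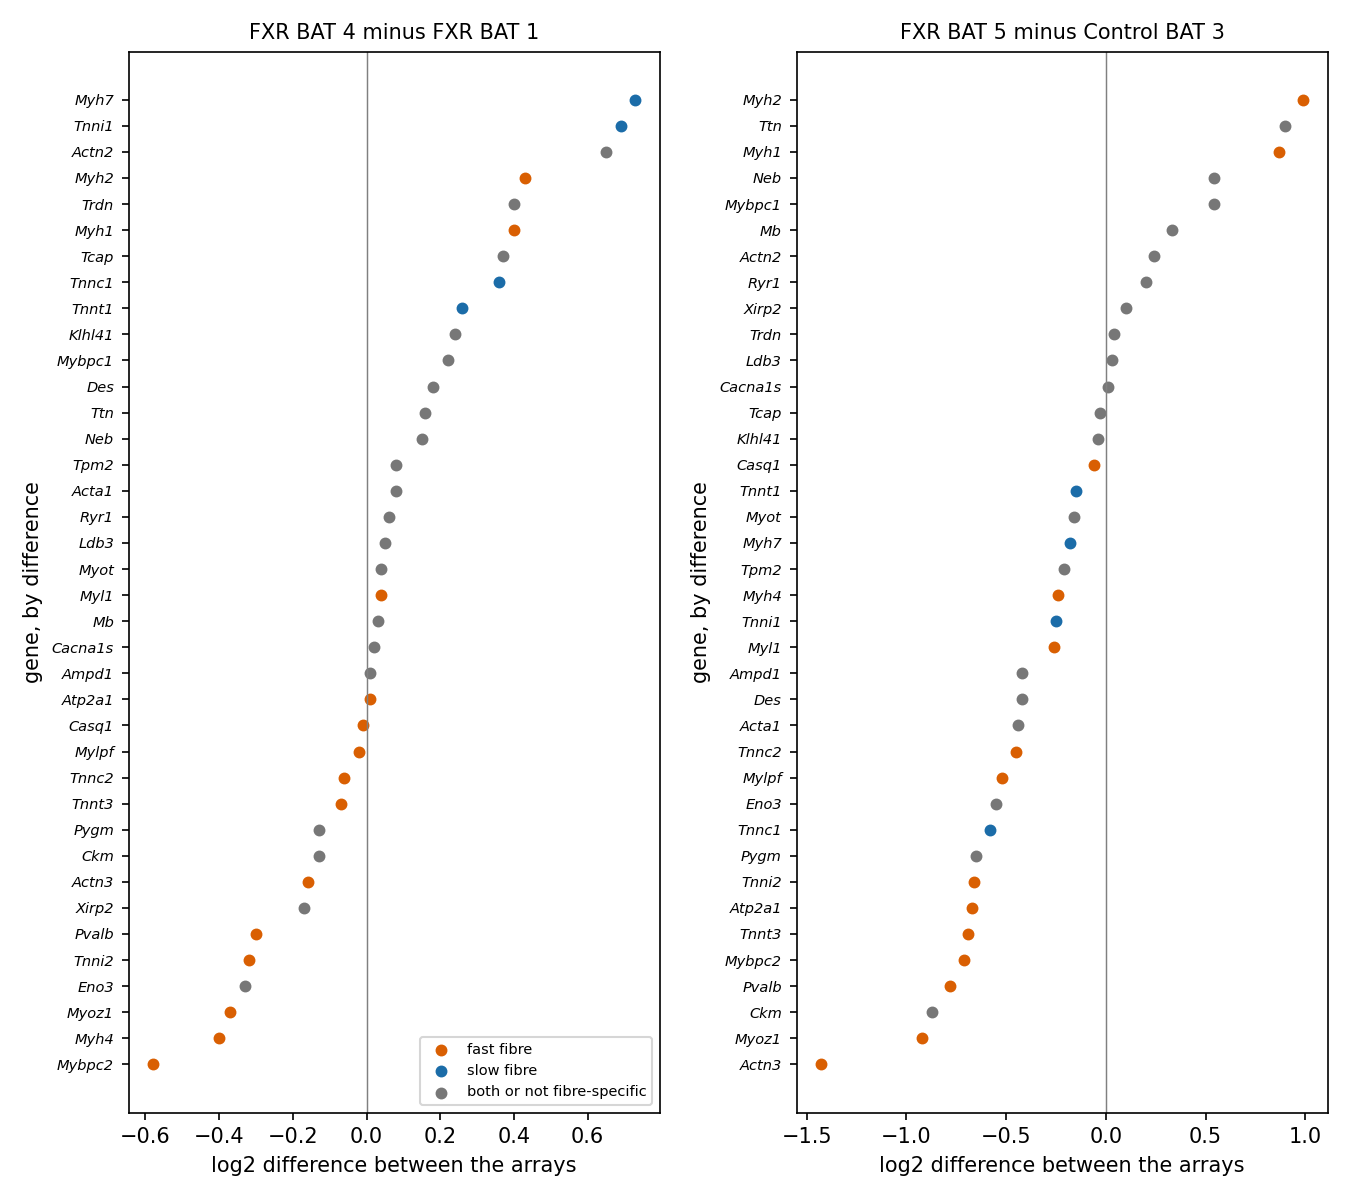
Log2 difference of each muscle gene between single arrays, FXR BAT 4 minus FXR BAT 1 (left) and FXR BAT 5 minus control BAT 3 (right), genes sorted by difference and coloured by fibre type. The 4 slow genes are all positive on the left, and Myh2, Ttn and Myh1 are the highest on the right while Actn3 is the lowest.

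In WAT, the muscle genes did not follow this pattern. The median difference between FXR WAT and control WAT over the 38 genes was -0.0051, against 0.001 over all genes, and 18 of 38 were positive. One of 38 rose (2.63%, against 0.873% of all genes) and 37 did not pass. That gene was Des, at 6.75, 6.60, 6.70 and 6.59 in FXR WAT, against 6.36, 6.43, 6.40 and 6.38 in control WAT. The groups did not overlap, as for 4.31% of all genes, and Des rose by 0.27 ± 0.04 on the log2 scale (limma SE, 4 arrays in each group, adjusted p = 0.0250). Its call was lost without control WAT 1, 2 or 4 or FXR WAT 3, with adjusted p of 0.0568 to 0.0780. Acta1 measured 7.53, 7.41, 7.67 and 8.18 in FXR WAT, against 6.92, 7.16, 7.41 and 7.42 in control WAT, and its difference of 0.47 ± 0.17 did not pass (SE, n = 4 and 4, adjusted p = 0.287, limma). The smooth muscle actin Acta2 measured 9.95, 9.26, 9.27 and 9.34 in FXR WAT, against 8.47, 8.24, 9.07 and 8.38 in control WAT. Its difference of 0.91 ± 0.20 did not pass (SE, n = 4 and 4, adjusted p = 0.0738, limma). Summed intensities of 7 smooth muscle genes were 1116 to 1901 in FXR WAT and 808 to 1254 in control WAT. Acta2 was the brightest of the 7 and weighed most in these sums. Of the 7, 0 passed in WAT, and their median difference was 0.099. The part of smooth muscle RNA in the Des and Acta1 values was not tested. Myl1 measured 6.10 to 6.32 in FXR WAT and 6.29 to 6.49 in control WAT (-0.20 ± 0.06, SE, n = 4 and 4, adjusted p = 0.152, limma). The 4 myosin heavy chains lay at 5.65 to 5.89 in FXR WAT and 5.73 to 5.91 in control WAT.

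The change in WAT minus the change in BAT, tested as an interaction, was negative for 38 of 38 genes, with a median of -1.66 against -0.0087 over all genes. None of the 38 passed with limma, where 6.46% of all genes passed in either direction; 22 (against 20.0% of all genes) had an unadjusted p below the threshold, and the smallest adjusted p was 0.0771 for Myh2. Without FXR BAT 3, the FXR BAT array with the lowest median of these genes, 25 of 38 passed (8.48% of all genes). Without FXR BAT 5, 1 did (5.42% of all genes). Without FXR BAT 1, 2 and 4 the count was 0 (6.5% of all genes) and the median 0.021.

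Control BAT was above control WAT for 38 of 38 genes in the limma fit, but so were 94.8% of all genes, with an overall median of 0.59. The median over the 38 genes was 1.17. With each array centred on its median, 22 of 38 and 7216 of all 19937 genes were higher, and after quantile normalization 30 of 38 and 5811 of all genes. Myl1 stood at 9.43 ± 0.19 in control BAT and 6.41 ± 0.09 in control WAT (SD, n = 5 and 4), a difference of 3.02, and Des at 8.59 ± 0.25 and 6.39 ± 0.03, a difference of 2.19 (adjusted p = 5.28e-11 and 2.11e-09, limma). Myh4 differed by 2.52 with a control BAT SD of 1.14, and the 4 slow genes by 0.66 to 0.85, close to the overall median.

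A second list of 38 measured muscle genes that are not among the 38 above gave 5 higher and 1 lower in BAT (13.2% higher, against 7.01% of all genes), with a median difference of 0.69. Tpm1, alpha-tropomyosin, which smooth muscle also makes, was 8.36 to 10.09 in FXR BAT and 7.85 to 8.66 in control BAT and rose by 1.26 ± 0.33 (SE, n = 5 and 5, adjusted p = 0.0256, limma). Dmd, dystrophin, was 6.53 to 7.63 in FXR BAT and 6.23 to 6.39 in control BAT and rose by 0.74 (adjusted p = 0.0302). Fbp2, the muscle fructose-bisphosphatase, measured 8.02, 8.22, 8.04, 8.84 and 8.37 in FXR BAT, against 8.86, 9.16, 8.73, 9.10 and 8.77 in control BAT. It fell by 0.63 (adjusted p = 0.0162, limma). Its arrays were not in the order of the 38 genes, with FXR BAT 1 the lowest. On the WAT arrays Fbp2 lay at 5.98 to 6.11. Summed intensities of this list were 13174 to 22650 in FXR BAT and 12990 to 16298 in control BAT. Its brightest gene, Car3, weighed most in these sums. Car3 lay at 12.84 to 13.10 in FXR BAT and 12.95 to 13.40 in control BAT, and at 12.18 to 12.31 on the WAT arrays. Without FXR BAT 1, 2 and 4, 1 was higher and 2 were lower, where 920 of all 19937 genes were higher and 993 lower.

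Of 6 further slow fibre genes, 2 rose, where 7.01% of all genes did. Casq2, the calsequestrin of slow and cardiac muscle, measured 7.94, 7.25, 7.32, 8.27 and 7.25 in FXR BAT, against 6.46, 6.64, 6.42, 6.53 and 6.52 in control BAT. All 5 FXR BAT arrays lay above all 5 controls, FXR BAT 3 included, as for 5.89% of all genes and unlike any of the 38 genes. It rose by 1.09 ± 0.18 (SE, n = 5 and 5, adjusted p = 0.00253, limma), and Tpm3 rose by 0.24 (adjusted p = 0.0322). Without FXR BAT 1, 2 and 4, 1 of the 6 rose, and 920 of all 19937 genes did.

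Of 7 regulators of the muscle lineage, 2 rose. Eya1 was 6.50 to 6.69 in FXR BAT and 6.31 to 6.41 in control BAT (0.23, adjusted p = 0.00229, limma), and Mef2c, a transcription factor of muscle and vessels, was 7.65 to 8.86 in FXR BAT and 7.24 to 7.46 in control BAT (0.84, adjusted p = 0.0252). Of 8 neuromuscular junction genes, the receptor subunit Chrnb1 (0.32, adjusted p = 0.0124) and the kinase Musk (0.36, adjusted p = 0.0361) rose, where 7.01% of all genes did. Without FXR BAT 1, 2 and 4, 0 of the 8 junction genes and 1 of the 7 regulators rose, where 920 of all 19937 genes did. Of 9 cardiac genes, 0 passed with limma, 0 had an unadjusted p below the threshold, and summed intensities were 820 to 905 in FXR BAT and 820 to 867 in control BAT.

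Smooth muscle and brown fat genes were ordered differently over the BAT arrays from the muscle genes. Of 7 smooth muscle genes, 5 rose (7.01% of all genes rose), and 5 did so without FXR BAT 1, 2 and 4. In the fit without those arrays, 920 of all 19937 genes rose and 993 fell. Acta2 measured 10.25, 9.82, 9.82, 9.40 and 9.70 in FXR BAT, against 8.36, 8.40, 8.61, 8.75 and 8.45 in control BAT, with FXR BAT 4 the lowest of the FXR arrays (1.28 ± 0.13, SE, n = 5 and 5, adjusted p = 0.000151, limma). Smtn, smoothelin, rose by 0.31 (adjusted p = 8.72e-05). Of 9 brown fat genes, 7 fell and 1 rose (8.75% of all genes fell), and 5 fell and 1 rose without FXR BAT 1, 2 and 4. Their summed intensities were 12964, 14571, 12298, 12977 and 11938 on FXR BAT 1 to 5, against 17242 to 21557 in control BAT, while those of the 38 muscle genes were 62121, 40493, 5072, 64638 and 12977, against 4871 to 16409. FXR BAT 4, with the most muscle signal, and FXR BAT 3, with the least of the FXR arrays, had brown fat sums of 12977 and 12298. Ucp1, the brightest of the 9 genes on each BAT array, weighed most in these sums, so they say little about the dimmer genes. Of 10 adipocyte genes, 7 fell and 1 rose, and 2 fell and 1 rose without FXR BAT 1, 2 and 4. Of 4 nerve genes, 1 rose, and 0 without those 3 arrays. The part of muscle cells from beside the fat in these values was not tested.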

How the data were processed

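Linear probe set intensity values of an Affymetrix mouse gene array, prepared from 500 ng of total RNA per the labels' protocols, were deposited by the authors in 1 value table. The summarisation and normalization behind these intensities are not given in the sources used here. The platform annotation gave 1 symbol to 21640 of 34760 probe sets, several to 1321 and none to 11799; the first kind, reduced to the brightest probe set per gene, gave 19937 genes. For 37 of the 38 muscle genes there was only 1 such probe set (19 for Trdn). No further normalization and no filter on dim genes was applied.

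Differences of log2(intensity + 1) were tested two-sided in R 4.3.3 by limma 3.58.1 (lmFit, then eBayes), with Benjamini-Hochberg adjustment over all genes at a threshold of 0.05. Fits were made within BAT, within WAT, over all 18 arrays for the difference between tissues, and between the control tissues. The script was tested on simulated data, with changes planted in genes of below-median SD and with independent noise, equal across groups. Changes in genes with a large SD, and genes that move together as the 38 did in BAT, were not simulated. Arrays give no depth; their number limits the precision. The 38 genes, the fibre type classes and the other lists were chosen with earlier results of these data known, and so were the arrays left out as rich in muscle. All 38 genes could be named, together with up to 3 called genes of each other list with the smallest adjusted p, or 2 with the highest mean where none was called, and Nr1h4, Ucp1 and Adipoq. Car3 was named as well, for its weight in the sums of its list. Alternatives were quantile normalization, median centring, a pseudocount of 32, a filter on dim genes, the mean of probe sets, array weights, a trended robust variance, the replicate number as a block, and arrays left out.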

Additional observations from a re-analysis of the deposited data

Results flagged for a closer look

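Within single groups, 152 sets of arrays (38 genes in 4 groups) were examined for an array that stood apart from the rest by Dixon's criterion, and 11 were marked, where chance gives 7.6. In control BAT, 6 genes had 1 array standing high, each time control BAT 3: Tnni1 at 6.83 (others 6.43 to 6.51), Tnnc1 at 7.28 (others 6.44 to 6.63), Actn2 at 7.27, Myot at 7.98, Xirp2 at 6.89 and Cacna1s at 7.16. These genes share the array, so the 6 are not independent. The 5 in WAT were small steps: Tnnc1 on FXR WAT 1 at 5.75 (low; others 5.85), Ttn on FXR WAT 2 at 5.81, Mb on FXR WAT 3 at 6.03, and Klhl41 at 5.88 and Casq1 at 6.04 on control WAT 3.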

How the results depend on the processing

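The 38 differences between FXR BAT and control BAT stayed positive in every fit run except the one without FXR BAT 1, 2 and 4, but the count that passed ran widely. It was 2 as reported, after quantile normalization, with a pseudocount of 32 and with the mean of probe sets. It was 6 with arrays centred on their median (24.3% of all genes in either direction), 13 among genes above the median level (28%, fewer genes tested), 22 with array weights (18.5%), and 0 with a trended robust variance (15.1%). With 1 array left out it was 0 to 36, with the high end without FXR BAT 3, 6 without FXR BAT 5 and 2 without control BAT 3. It was 0 without control BAT 2 and 4 (7.1% of all genes) and 0 without FXR BAT 1, 2 and 4 (9.6%). In that last fit the median of the 38 genes was 0.012 and 19 of 38 differences were below 0, lowest for Actn3 (-0.50); among the genes with values given array by array they were Myh4 -0.016, Myh7 -0.079, Myl1 -0.010, Tnni1 -0.055, Tnni2 -0.054, Des -0.30, Atp2a1 -0.048, Mylpf -0.018, Tnnc1 -0.054 and Ckm -0.20. After quantile normalization Adipoq differed by 0.0030 in BAT. In WAT the count was 1 under the other settings except the replicate block and 0 to 1 with 1 array left out. The difference between tissues called 1 gene among those above the median level (14.3% of all genes), 14 with array weights (8.88%), and 0 to 25 with 1 array left out, the high end without FXR BAT 3 and 1 without FXR BAT 5. Between control tissues 22 were called with centring (83% of all genes) and 23 with the filter (96%), which kept only 23 of the 38. The slow median on FXR BAT 4 was 2.00 with 6 further slow genes, against 3.87, and on control BAT 3 the linear ratio, taken to log2, was 0.62, against 0.28. Where no reason is given, the cause was not tested.

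Replicate numbers shared between groups were not taken to pair the arrays: correlations of same-numbered deviations between FXR BAT and control BAT were -0.49 to 0.28, and between FXR WAT and control WAT 0.0085 to 0.16. Between tissues they were 0.059 to 0.13 for FXR BAT with FXR WAT and -0.083 to 0.26 for control BAT with control WAT, and 3 of 4 arrays in each genotype correlated best with their own number, but not every pair was above 0.1. Whether shared numbers mark the same mouse across tissues was thus not settled, and the main fits across tissues took the arrays as independent. With the replicate block, 0 of the 38 passed in BAT (smallest adjusted p = 0.0538, limma), 0 in WAT (0.0588) and 0 for the difference between tissues (0.0837), while 2741, 237 and 1437 of all genes passed, against 3142, 265 and 1288 without it. Dim genes near the median of all genes, such as the slow genes in control BAT, limit what a decrease can show.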
